A study of Homo sapiens with 6 samples.

Results

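Replication-dependent histone genes encode the bulk histones that package newly made DNA. They were taken here as the protein-coding genes whose older symbol begins with HIST1H, HIST2H, HIST3H or HIST4H, a rule on names that used no measured value. It gave 71 of the 58735 genes in the deposited table: 6 genes for the linker histone H1, 17 for H2A, 18 for H2B, 15 for H3 and 15 for H4. On chromosome 6, 55 of them lie in the HIST1 cluster between positions 25726132 and 27893843 of GRCh38. Another 15 lie on chromosome 1, and HIST4H4 lies on chromosome 12. The name rule also takes HIST1H1T, HIST1H2AA, HIST1H2BA and HIST3H3, which are known as testis genes.

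The libraries come from Ishikawa cells, a human endometrial cancer line. One group, siNC, received a negative control siRNA (3 libraries), and the other, siTCF19, received an siRNA against TCF19 (3 libraries). Both groups were transfected with lipo2000 and kept in DMEM with fetal bovine serum for 48 hours before total RNA was taken with Trizol, so the controls share the lipofection. The knockdown is transient, and the labels name neither the siRNA sequence nor separate cultures behind the libraries, so the p-values reflect no more than the scatter among these 6 libraries, which could be technical. TCF19, a nuclear protein with a PHD finger, read 177, 185 and 177 CPM (read counts scaled to a library of a fixed size) in the siNC libraries and 42.7, 35.3 and 39.1 CPM in the siTCF19 libraries. All siTCF19 values lay below all siNC values, and the edgeR log2 fold change was -2.20 ± 0.06 (SE, adjusted p = 6.15e-29).

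In dividing cells these genes are switched on together at the start of S phase by the coactivator NPAT in nuclear histone locus bodies. Their mRNAs end in a stem-loop in place of a poly(A) tail: the stem-loop binding protein SLBP holds it, the U7 snRNP directs the cut behind it, and the same stem-loop serves translation and the rapid decay at the end of S phase. Some of these genes also make a longer, polyadenylated mRNA, mainly described in cells that leave the cycle, and a library that starts from poly(A) RNA sees that form.

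The stem-loop is the sequence that defines the family, so the sites of 7 of the 9 members called higher in siTCF19 are printed here from the GENCODE 29 transcripts, on GRCh38. Each run reads 5′ to 3′ on the gene's strand, and capitals mark the stem-loop in the 3′ UTR. HIST1H2AC lies at chr6:26124662-26124691 (plus), HIST3H2A at chr1:228457362-228457391 (minus), HIST1H2BC at chr6:26123465-26123494 (minus), HIST1H2BD at chr6:26158580-26158609 (plus), HIST1H3E at chr6:26225589-26225616 (plus), HIST1H4H at chr6:26285124-26285153 (minus) and HIST1H4I at chr6:27139647-27139676 (plus).
HIST1H2AC: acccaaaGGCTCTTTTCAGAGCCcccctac
HIST3H2A: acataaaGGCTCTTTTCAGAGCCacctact
HIST1H2BC: ccccaaaGGCTCTTTTAAGAGCCacccaga
HIST1H2BD: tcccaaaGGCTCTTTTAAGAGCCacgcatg
HIST1H3E: atccaaaGGCTCTTCTCAGAGCCaacca
HIST1H4H: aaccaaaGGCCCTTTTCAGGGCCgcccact
HIST1H4I: ctaaaaaGGCCCTTTTTAGGGCCcctaagc

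The stem-loop was searched on the transcript strand after the stop codon as the stem arm GGCNCT, any 4 bases of loop and the facing arm AGNGCC. It was found in 32 of the 36 members that have an annotated 3′ UTR, 22 to 67 bases after the stop codon (median 35.5), and the other 35 members, HIST1H1C and HIST1H2BK among them, are annotated as coding sequence only. Within 100 bases of the stop codon, 10 of 19109 other protein-coding genes with a 3′ UTR (0.0523%) held the same letters, among them H2AFX, the variant H2A gene known to end in either way. The form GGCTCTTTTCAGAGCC was found in 17 members (6 H2A, 8 H2B and 3 H3), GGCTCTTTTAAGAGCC in 5 members (3 H2B and 2 H3), and the G/C-rich stems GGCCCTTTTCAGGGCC and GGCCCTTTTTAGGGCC in 5 and 3 H4 members and in no other family. HIST1H3E, with GGCTCTTCTCAGAGCC, and HIST1H2AG, with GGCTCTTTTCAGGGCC, each had a form of their own.

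Histone reads were rare in every library. The 71 genes held 1425, 1562 and 1656 counts in siNC and 2049, 1991 and 2008 counts in siTCF19. That is 0.00989% ± 0.000504 of all counts in siNC and 0.0133% ± 0.000218 in siTCF19 (SD, n = 3 libraries each), and no siTCF19 library overlapped a siNC library. Summed over the family, the level was 101 ± 4.43 CPM in siNC and 131 ± 1.98 CPM in siTCF19, a ratio of 1.29. The sum rests on few genes: HIST1H1C, HIST1H2AC, HIST1H2BD and HIST1H2BK held 54.5% of all histone counts, and without these 4 the sums were 47.9 ± 2.01 and 57.7 ± 3.16 CPM, again with no overlap between the groups.

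Of the 71 genes, 19 passed the filter on low counts (at least 0.650 CPM in at least 3 libraries, the level of 10 counts in a library of median size). The edgeR test called 9 of these 19 higher and 1 lower at an adjusted p under 0.05, and 9 were not called. Over all 17299 tested genes the same rule called 20.7% higher and 20.8% lower. The groups did not overlap in 11 of the 19 with siTCF19 above and in 2 with siTCF19 below, against 24.4% and 24.9% of all tested genes, or 49.2% in either direction. The median log2 fold change of the 19 was 0.38, beside 0.00 for all tested genes, and 14 of the 19 estimates were above 0. The other 52 members were too low to test, and 16 of the 19 passed the level in all 6 libraries. HIST1H2BE passed it in the siTCF19 libraries alone and HIST1H4E in the siNC libraries alone, so the filter itself favours a difference for these genes, and HIST1H2BO passed it in 2 siNC libraries and 1 siTCF19 library.

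**Figure D1:**
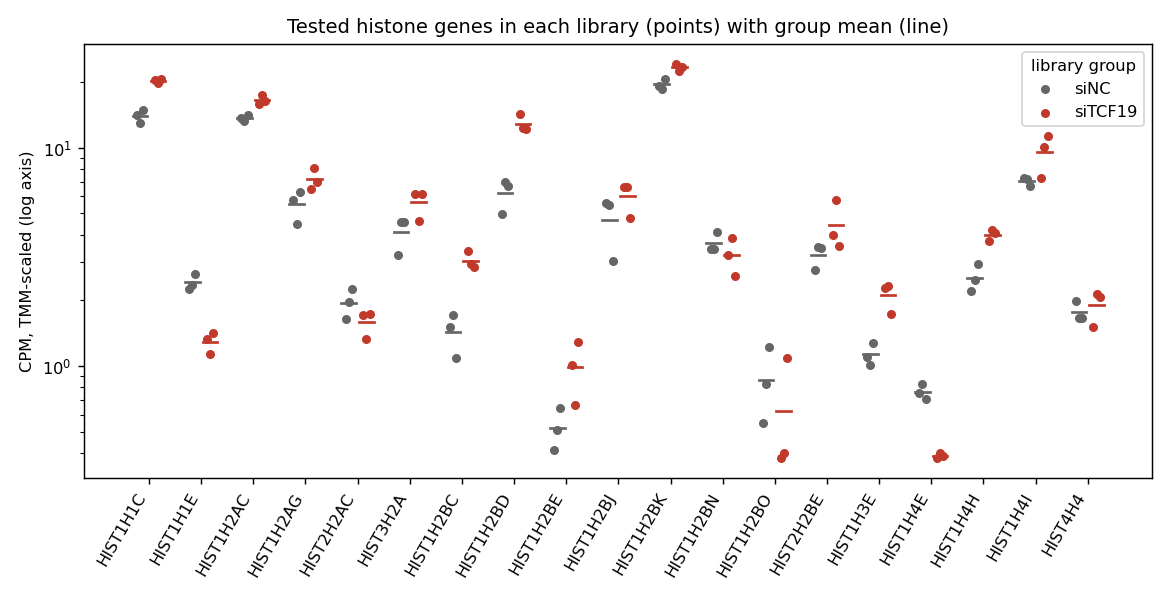
CPM on a log axis of the 19 tested histone genes in each of the 3 siNC (grey) and 3 siTCF19 (red) libraries; short lines are group means. HIST1H2BD, HIST1H2BC and HIST1H1C show red points well above grey ones, while HIST1H1E and HIST1H4E show red points below.

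Linker histones, which sit on the DNA entering and leaving the nucleosome, moved in opposite directions. HIST1H1C (ENSG00000187837, chr6:26055787-26056428, minus strand) read 14.2, 12.9 and 14.8 CPM in siNC and 20.3, 19.8 and 20.7 CPM in siTCF19. Each siTCF19 library was above each siNC library, and the log2 fold change was 0.54 ± 0.10 (edgeR adjusted p = 2.38e-05). HIST1H1E (ENSG00000168298, chr6:26156354-26157107, plus strand), another main somatic linker histone, read 2.27, 2.35 and 2.63 CPM in siNC and 1.33, 1.14 and 1.42 CPM in siTCF19. Here each siTCF19 library was below each siNC library, and the log2 fold change was -0.90 ± 0.29 (edgeR adjusted p = 0.0109). Behind these levels stand 33, 37 and 41 counts for siNC and 21, 17 and 22 for siTCF19. The other linker histone members, HIST1H1A, HIST1H1B, HIST1H1D and HIST1H1T, had summed counts too low to test, at 12 or fewer over the 6 libraries.

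H2A pairs with H2B in dimers that are part of the nucleosome core. Of 17 H2A genes 4 were tested, and HIST1H2AC and HIST3H2A were called higher. HIST1H2AC (ENSG00000180573, chr6:26124145-26139116, plus strand) read 13.7, 13.2 and 14.2 CPM in siNC and 15.8, 17.4 and 16.4 CPM in siTCF19. The groups did not overlap and the rise was small, at 0.27 ± 0.10 on the log2 scale (edgeR adjusted p = 0.0347). HIST3H2A (ENSG00000181218, chr1:228456979-228457873, minus strand) read 3.23, 4.58 and 4.56 CPM in siNC and 6.14, 4.61 and 6.13 CPM in siTCF19. Its lowest siTCF19 library stood barely above the highest siNC library, and the log2 fold change was 0.44 ± 0.18 (edgeR adjusted p = 0.0463). Without siNC replicate 1 the HIST3H2A value was 0.30 (adjusted p = 0.234), and DESeq2 did not call it (adjusted p = 0.115) or HIST1H2AC (0.0742).

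HIST1H2AG read 5.77, 4.46 and 6.29 CPM in siNC and 6.45, 8.08 and 6.96 CPM in siTCF19. The groups did not overlap, yet the estimate of 0.38 ± 0.16 did not pass (edgeR adjusted p = 0.0550). HIST2H2AC, one of the H2A genes of the chromosome 1 cluster, read 1.65, 1.97 and 2.25 CPM in siNC and 1.71, 1.34 and 1.74 CPM in siTCF19. Its groups overlapped, and its log2 fold change of -0.29 had an interval from -0.89 to 0.30 (edgeR adjusted p = 0.457).

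Both genes that rose at least 2-fold among the 19 tested encode H2B. HIST1H2BD (ENSG00000158373, chr6:26158146-26171349, plus strand) read 4.95, 7.00 and 6.67 CPM in siNC and 14.2, 12.3 and 12.2 CPM in siTCF19. The lowest siTCF19 library was far above the highest siNC library, and the level rose 2.07-fold (95% interval 1.71 to 2.51, edgeR adjusted p = 3.22e-08). HIST1H2BC (ENSG00000180596, chr6:26114873-26123926, minus strand) read 1.51, 1.72 and 1.09 CPM in siNC and 3.35, 2.94 and 2.84 CPM in siTCF19. It too showed no overlap, and it rose 2.11-fold (95% interval 1.45 to 3.06, edgeR adjusted p = 0.00101). HIST1H2BK (ENSG00000197903, chr6:27146418-27146798, minus strand) read 19.2, 18.5 and 20.7 CPM in siNC and 24.2, 22.4 and 23.4 CPM in siTCF19. The groups stood apart by a narrow margin, with a log2 fold change of 0.26 ± 0.09 (edgeR adjusted p = 0.0189).

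The other 5 tested H2B genes were not called. HIST1H2BE counted 6, 8 and 10 reads in siNC and 16, 10 and 20 in siTCF19, with a log2 fold change of 0.91 ± 0.44 (edgeR adjusted p = 0.0937). It is one of the genes the filter kept through a single group, and 28.2% of its exonic bases overlap AL353759.1. HIST1H2BJ read 5.57, 5.47 and 3.02 CPM in siNC and 6.58, 6.61 and 4.77 CPM in siTCF19, overlapping groups with an estimate of 0.36 ± 0.19 (edgeR adjusted p = 0.133). HIST2H2BE read 2.75, 3.50 and 3.46 CPM in siNC and 3.99, 5.74 and 3.55 CPM in siTCF19. All siTCF19 values of HIST2H2BE were above all siNC values, and its 0.44 ± 0.21 did not pass (edgeR adjusted p = 0.0845). HIST1H2BN read 3.44, 3.44 and 4.11 CPM in siNC and 3.23, 3.87 and 2.58 CPM in siTCF19, with -0.18 ± 0.21 (edgeR adjusted p = 0.525). HIST1H2BO counted 8, 13 and 19 reads in siNC and 6, 6 and 17 in siTCF19, with -0.47 ± 0.46 (edgeR adjusted p = 0.447). For HIST1H2BN and HIST1H2BO the groups overlapped.

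Among the H3 genes a single member could be tested. HIST1H3E (ENSG00000274750, chr6:26224199-26227473, plus strand), which encodes the replicative form of H3, read 1.10, 1.02 and 1.28 CPM in siNC and 2.28, 2.34 and 1.74 CPM in siTCF19. Those are 16, 16 and 20 counts against 36, 35 and 27, and no siTCF19 library reached down to the siNC range. The level rose 1.86-fold (95% interval 1.20 to 2.88, edgeR adjusted p = 0.0180). Its adjusted p was 0.0597 when siNC replicate 2 was left out, 0.0598 when siTCF19 replicate 1 was, and 0.0605 when siTCF19 replicate 2 was.

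The H4 genes all encode the same protein, apart from the diverged HIST1H4G, which had no count. HIST1H4H (ENSG00000158406, chr6:26277609-26285638, minus strand) read 2.20, 2.48 and 2.95 CPM in siNC and 3.73, 4.21 and 4.06 CPM in siTCF19. Its groups did not overlap, and the log2 fold change was 0.65 ± 0.22 (edgeR adjusted p = 0.0136), or 0.56 (0.0585) without siNC replicate 1. HIST1H4I (ENSG00000276180, chr6:27138588-27139881, plus strand) read 7.28, 7.19 and 6.67 CPM in siNC and 7.28, 10.1 and 11.3 CPM in siTCF19. The first siTCF19 library lay within the siNC range, so the call at 0.44 ± 0.15 (edgeR adjusted p = 0.0150) rests on the other two libraries. The call was lost on leaving out siTCF19 replicate 3 (0.30, adjusted p = 0.142) or siTCF19 replicate 2 (0.40, adjusted p = 0.0519).

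HIST1H4E counted 11, 13 and 11 reads in siNC and 6, 6 and 6 in siTCF19. The groups did not overlap, and at this depth the log2 fold change of -0.96 ± 0.48 did not pass (edgeR adjusted p = 0.109). It is the gene that met the filter in siNC alone. HIST4H4, the lone member on chromosome 12, read 1.99, 1.65 and 1.67 CPM in siNC and 1.52, 2.14 and 2.06 CPM in siTCF19. Its groups overlapped, with a log2 fold change of 0.11 and an interval from -0.48 to 0.69 (edgeR adjusted p = 0.806).

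**Figure D2:**
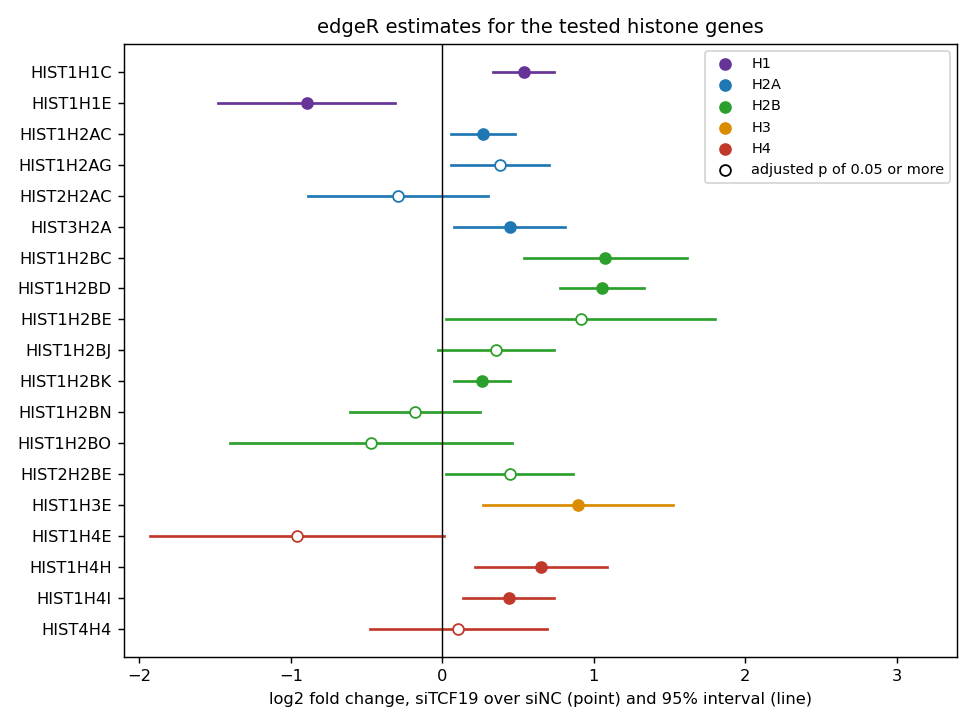
edgeR log2 fold change of siTCF19 over siNC (point) with its 95% interval (line) for the 19 tested histone genes, coloured by family; filled points passed an adjusted p under 0.05. The 9 filled points on the right include HIST1H2BC at 1.08 and HIST1H2BD at 1.05, and the filled point on the left is HIST1H1E at -0.90.

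How firmly single calls stood differed between members. Under 17 other settings (scalings, filters, tools, a stricter threshold and each library left out), HIST1H1C, HIST1H2BC and HIST1H2BD were called every time. HIST1H1E lost its call at the stricter threshold alone, where its adjusted p of 0.0109 misses 0.01. HIST1H4H lost it in 2 settings, HIST1H2BK, HIST1H3E and HIST1H4I in 4 each, HIST1H2AC in 7 and HIST3H2A in 8. Leaving out siNC replicate 1 gave HIST1H2BK an adjusted p of 0.0546, leaving out siNC replicate 2 one of 0.0807, and leaving out siTCF19 replicate 1 one of 0.0888. For HIST1H2AC these were 0.0747 and 0.102 when the first or second siNC library was dropped and 0.110 and 0.0598 when siTCF19 replicate 2 or siTCF19 replicate 3 was dropped. HIST3H2A was also lost on dropping siTCF19 replicate 1 (0.159) or siTCF19 replicate 3 (0.143). The authors' deposited table lists 3 members higher at an adjusted p under 0.05 (HIST1H1C, HIST1H2BC and HIST1H2BD) and 0 lower. At its unadjusted p under 0.05 that table holds 2 lower members, HIST1H1E and HIST2H3D.

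Some members that were not called gained a call elsewhere. HIST1H2AG did so in 5 of 17 settings, with adjusted p values down to 0.0261 under library-size-only scaling, and at 0.0292 without siNC replicate 3 and 0.0446 without siTCF19 replicate 1. HIST2H2BE passed under library-size-only scaling (0.0475) and without siTCF19 replicate 3 (0.0340), which also let HIST1H2BJ pass (0.0409). HIST1H4E passed as lower with limma-trend on log2(FPKM + 1) (0.00675). The HIST1H2BJ estimate of 0.36 ran from 0.12 without siNC replicate 3 to 0.50 without siTCF19 replicate 3, and that of HIST1H2BO from -0.14 to -1.14 with the same libraries left out.

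Summed by family, H1 rose from 16.6 ± 1.15 to 21.7 ± 0.602 CPM, a ratio of 1.31, which is carried by HIST1H1C. The H2A sum went from 26.7 ± 1.85 to 32.6 ± 0.266 CPM (ratio 1.22), and the H2B sum from 41.2 ± 1.59 to 55.5 ± 2.66 CPM (ratio 1.35). H4 went from 13.0 ± 0.232 to 16.5 ± 2.54 CPM (ratio 1.27). In these 4 families every siTCF19 library lay above every siNC library. The H3 sums were 3.50, 3.18 and 4.68 CPM in siNC and 4.11, 5.48 and 3.68 CPM in siTCF19, so its groups overlapped. The sums were not tested, and neither were the differences between families.

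**Figure D3:**
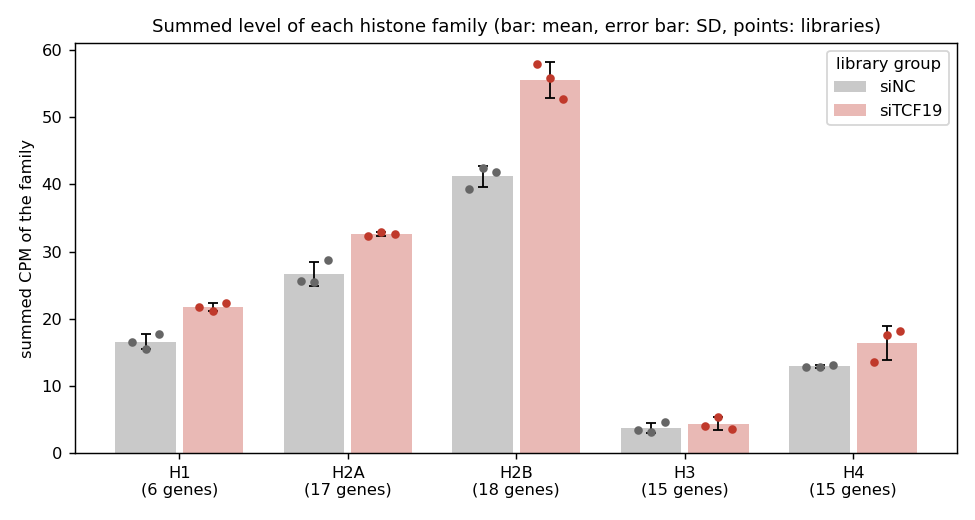
Summed CPM of each histone family; bars are means, error bars SDs over 3 libraries and points the single libraries, with siNC in grey and siTCF19 in red. The red points lie above the grey ones for H1, H2A, H2B and H4 and among them for H3.

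Compared per annotated length, as the deposited FPKM values allow, HIST1H2BK led in siNC at 50.7 ± 2.68 FPKM. HIST1H1C followed at 21.6 ± 1.44 FPKM, HIST1H2AC at 8.14 ± 0.258 FPKM and HIST1H2BD at 7.06 ± 1.25 FPKM. At the other end of the 19 tested genes stood HIST1H4E at 0.509 ± 0.0420 FPKM, HIST1H3E at 0.419 ± 0.0489 FPKM and HIST1H2BE at 0.200 ± 0.0435 FPKM. HIST1H2BK was apart from HIST1H1C, and HIST1H1C from HIST1H2AC, by more than their SDs, while in 10 of the 18 neighbouring pairs of this order the SD ranges overlapped. In siTCF19, HIST1H2BD (14.7 ± 1.37 FPKM) stood above HIST1H2AC (9.81 ± 0.423 FPKM). The lengths behind these levels run from 381 bases for HIST1H2BK, which is annotated as coding sequence only, to 5477 bases for HIST1H2BN, so the order depends on how the 3′ ends are annotated.

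The 52 members below the filter held 79, 90 and 115 counts together in siNC and 90, 99 and 76 in siTCF19, with overlapping groups. Of these, 18 had no count in any library and 25 had 1 to 19 counts over all 6. A library with 0 counts still allows up to 3 counts, or 0.190 to 0.206 CPM, by counting error alone. Of the 15 H3 members 14 were untested, among them HIST1H3B, the member below the filter with the most reads. It counted 11, 7 and 20 reads in siNC and 10, 4 and 7 in siTCF19. HIST2H2BF counted 5, 12 and 6 in siNC and 9, 6 and 8 in siTCF19, and HIST1H2AE 11, 3 and 6 in siNC and 17, 3 and 5 in siTCF19. In these 3 genes the groups overlapped.

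With no filter, a further H3 gene was called in each direction, named here after their values were seen. HIST1H3H counted 1, 4 and 2 reads in siNC and 6, 16 and 10 in siTCF19 (edgeR log2 fold change 2.13, adjusted p = 0.0113). HIST2H3D counted 2, 13 and 14 in siNC and 3, 0 and 3 in siTCF19 (edgeR log2 fold change -2.21, adjusted p = 0.0151), and its groups overlapped through siNC replicate 1.

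Several members share sequence with another gene, as near-identical copies or through exons annotated at the same place. In 16 members more than 50% of the 100-base windows of the transcript also occur in another gene. None of these 16 was tested, 9 had no count, and all 16 together held 85 counts. Exons annotated to other genes cover 88.0% to 100% of HIST1H2AD, HIST1H2AK, HIST1H2AM, HIST1H3D and HIST2H3PS2, which had no count. The labels do not say how reads matching several places or several genes were treated, so the levels of the 16 are uncertain. In 46 members no such window is shared. Of those, 13 were tested and 8 were called higher and 1 lower, beside 20.7% and 20.8% of all tested genes. Among the called genes, HIST1H2BK shares 28.4% of its windows with another gene, and the others share none.

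The annotated 3′ end went along with how many reads a member had, and a longer annotated end also adds bases over which reads are counted. Of 25 members with a 3′ UTR longer than 150 bases, 14 were tested, and 7 were called higher and none lower, beside 20.7% and 20.8% of all tested genes. Their summed level was 57.6 ± 1.68 CPM in siNC and 79.4 ± 3.32 CPM in siTCF19. Of 35 members annotated with no 3′ UTR, 14 had no count and 4 were tested (HIST1H1C, HIST1H2BK, HIST1H2BO and HIST2H2AC), of which the first 2 were called higher and none lower. Their sum was 39.8 ± 3.37 CPM in siNC and 48.2 ± 1.62 CPM in siTCF19. Most of this sum came from HIST1H1C and HIST1H2BK, and its rise rests on them. HIST1H2BO and HIST2H2AC had negative log2 fold changes (-0.47 and -0.29). The untested members without a 3′ UTR together held fewer counts in each siTCF19 library than in any siNC library. Whether the change in level depends on the annotated 3′ end was not tested. Of 11 members with a 3′ UTR of up to 150 bases, HIST1H1E alone was tested, and it was called lower. The sum of the 11 was 3.82 ± 0.470 CPM in siNC and 3.07 ± 0.649 CPM in siTCF19, with overlapping groups. A poly(A) signal, AATAAA or ATTAAA within the last 50 bases of a long 3′ UTR on the transcript strand, was found in 19 members, and 12 of these were tested, with 6 called higher and none lower. Of the 52 members without one, 7 were tested, with 3 higher and 1 lower. Counts are summed over a gene, so reads of the stem-loop form and of the polyadenylated form cannot be told apart.

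**Figure D4:**
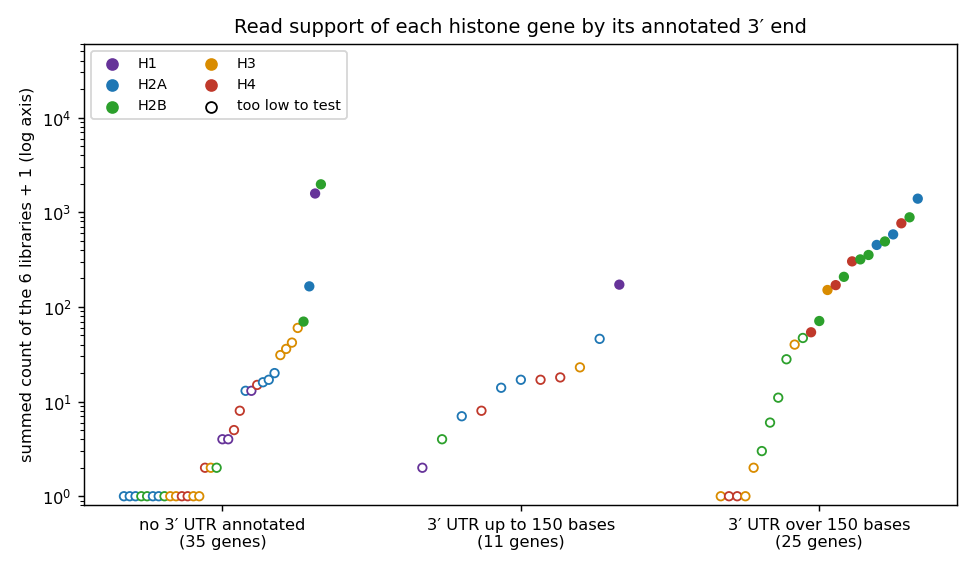
Summed count over the 6 libraries plus 1, on a log axis, of all 71 histone genes, grouped by the length of the annotated 3′ UTR and coloured by family; open points were too low to test. Of the 25 genes with a 3′ UTR over 150 bases 14 were tested, of the 35 with none 4.

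HIST1H2BD and HIST1H2BC, which had the largest folds of the 19 tested genes, have a second kind of 3′ end. Both have 1 annotated transcript that runs through the stem-loop and 1 that splices 9 bases after the stop codon, skips the stem-loop and ends in a downstream exon. The spliced 3′ UTR is 384 bases long in HIST1H2BD and 272 bases in HIST1H2BC. HIST1H2AC also has a transcript that skips the stem-loop, with the splice 8 bases after the stop codon. Its other transcript, which runs through the stem-loop, is itself spliced, 124 bases after the stop codon. A stem-loop transcript beside another with a 3′ UTR over 150 bases and no stem-loop is annotated in 5 members, spliced or not. Of these, 4 were tested, and HIST1H2AC, HIST1H2BC and HIST1H2BD were called higher, beside 20.7% of all tested genes. The others, HIST1H2BN and HIST2H2BF, have no splice after the stop codon in these transcripts, so they are not of the same kind. HIST1H2BN was not called at -0.18. HIST2H2BF was below the filter and had a log2 fold change of -0.01 with no filter, where it was not called either. In all, 13 members have an intron and 58 have a single exon. The gene counts do not say which of these ends was read, and a link between such an end and the change in level was not tested.

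Divergent promoters, with an H2A and an H2B gene read away from each other, are the usual layout of these clusters. HIST1H2BC and HIST1H2AC start 219 bases apart, and both were called higher. HIST1H2BJ and HIST1H2AG (292 bases) were both tested and not called, and the same held for HIST2H2BE and HIST2H2AC (323 bases). Other pairs were lopsided. HIST1H2BK held 1974 counts over all libraries and its partner HIST1H2AH, 331 bases away, 19 counts. HIST3H2A held 451 counts and HIST3H2BB, 234 bases away, 27.

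The octamer ATTTGCAT, the site of the POU factor OCT1 in H2B promoters, is printed for the pair that moved together, for the most abundant member and for a pair that was not called. The RefSeq promoters (GRCh38.p14, 250 bases before to 50 after the start) are read on the H2B strand, which is minus for the 3 genes, with the octamer in capitals. HIST1H2BC, whose site also lies in the HIST1H2AC promoter, is at chr6:26124031-26124060, HIST1H2BK at chr6:27146886-27146915 and HIST1H2BJ, with HIST1H2AG, at chr6:27132824-27132853.
HIST1H2BC: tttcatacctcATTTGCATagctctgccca
HIST1H2BK: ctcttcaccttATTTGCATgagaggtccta
HIST1H2BJ: ctcttcaccttATTTGCATaagcgattcta

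Promoters were matched for 65 of the 71 members. The octamer, searched on both strands, was in 13 of 17 H2B promoters and 11 of 16 H2A promoters and in none of the 6 H1, 13 H3 and 13 H4 promoters. Of all 35116 promoters of the same length, 1.77% hold it. The CCAAT box was in 55 of 65 members' promoters and in 34.6% of all promoters, and the H4 genes stood out with 3 of 13. TATAAA was in 44 of 65 against 11.5% of all. These are matches of letters in a fixed window, and several sites are counted in both genes of a divergent pair.

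The machinery that serves these mRNAs was expressed throughout: all 65 genes of the lists for histone gene transcription, 3′ end processing, translation and decay, and chaperones were tested, and 9 were higher, 27 lower and 29 not called, beside 20.7% higher and 20.8% lower over all tested genes. Their median log2 fold change was -0.10. Among 14 transcription genes 3 were higher and 4 lower (median -0.03), close to those shares. NPAT, the coactivator of the histone locus, read 37.8 ± 2.29 CPM in siNC and 41.9 ± 2.28 CPM in siTCF19 and was not called (log2 fold change 0.15, edgeR adjusted p = 0.103). CCNE1, the cyclin that drives NPAT phosphorylation, rose by 0.45 ± 0.06, E2F1 by 0.28 ± 0.05 and CCNE2 by 0.43. CDC25A, the phosphatase that activates CDK2, and TRRAP, a scaffold of histone acetyltransferases, had log2 fold changes of -0.54 ± 0.06 and -0.26 ± 0.05. The H4 promoter factor HINFP (-0.21) and YY1 (-0.14) were the other lower genes. HINFP lost its call in 8 of 17 settings, among them the drop of siNC replicate 2 (0.145) or siNC replicate 3 (0.0939) and that of siTCF19 replicate 1 (0.0740) or siTCF19 replicate 2 (0.142).

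Of 19 genes for 3′ end processing 3 were higher and 10 lower (median -0.15), beside 20.7% and 20.8% of all tested genes. SLBP read 115 ± 2.23 CPM in siNC and 126 ± 5.29 CPM in siTCF19, a log2 fold change of 0.14 ± 0.05 (edgeR adjusted p = 0.0291). That call was lost in 7 of 17 settings, among them the drop of siNC replicate 2 (0.0572) or siNC replicate 3 (0.119) and that of siTCF19 replicate 1 (0.135) or siTCF19 replicate 3 (0.0691). LSM10 and LSM11, the Lsm proteins particular to the U7 snRNP, had log2 fold changes of 0.17 (edgeR adjusted p = 0.0407) and 0.28 (0.00487). The LSM10 call was lost in 8 of 17 settings, with an adjusted p of 0.245 without siNC replicate 3, 0.155 without siTCF19 replicate 1 and 0.198 without siTCF19 replicate 3. The Sm proteins SNRPB and SNRPF, which the U7 snRNP shares with the spliceosome, had log2 fold changes of -0.54 ± 0.05 and -0.41 ± 0.06. CDK9, the kinase of the elongation factor P-TEFb, and NELFB, of the negative elongation factor, fell by 0.51 and 0.36 on the log2 scale.

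Of 13 genes for translation and decay 2 were higher and 4 lower (median -0.02), beside 20.7% and 20.8% of all tested genes. UPF1, the helicase that starts histone mRNA decay, had a log2 fold change of -0.42 ± 0.05 and the decapping enzyme DCP2 -0.41 ± 0.05. MIF4GD, the SLBP-interacting translation factor, rose by 0.52 ± 0.11 and the exonuclease XRN1 by 0.36 ± 0.07. EXOSC10, of the nuclear exosome, and the nuclear exonuclease XRN2 were the other lower genes (-0.26 and -0.20). Of 19 chaperone and deposition genes 1, NAP1L4, was higher (0.27 ± 0.04) and 9 were lower (median -0.14), beside the same shares of all tested genes. SET, MCM2 and TONSL, the last a reader of new H4 tails at the fork, had log2 fold changes of -0.43, -0.35 and -0.32.

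The variant histones are mostly made throughout the cycle from polyadenylated mRNAs. Of 11 tested, 1 was higher, H2AFV (0.41 ± 0.04), and 4 were lower, H3F3A (-0.38), H2AFY2 (-0.31), H1FX (-0.19) and H2AFX (-0.15). H1FX and H2AFX each lost the call in 5 of 17 settings, among them the drop of siNC replicate 2 (adjusted p = 0.0972 and 0.0590) and of siTCF19 replicate 2 (0.135 and 0.141). The median of the 11 was -0.08, and over all tested genes 20.7% were higher and 20.8% lower. Of 21 tested S phase genes 2 were higher and 13 lower, beside the same shares of all tested genes, with a median of -0.21. MCM7 (-0.52 ± 0.05), FEN1 (-0.46 ± 0.05), MCM3 (-0.37 ± 0.05) and TYMS (-0.55 ± 0.07), which are helicase subunits, the Okazaki fragment nuclease and the dTMP synthase, were among the lower ones, and CLSPN (0.24) was among the higher ones. Genes named in these list accounts only to complete a count of 5 or fewer (CCNE2, HINFP, YY1, LSM10, LSM11, EXOSC10, XRN2, H2AFX and CLSPN) were chosen after their values were seen. In bulk RNA, fewer cells in S phase and less of an RNA per cell cannot be told apart.

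The chromosome 6 span also holds 20 other protein-coding genes. Of these 12 were tested, and 2 were higher (BTN2A1 at 0.24, not called without siNC replicate 3 at an adjusted p of 0.0535, and PRSS16 at 0.41), 2 lower (BTN3A1 at -1.21 and BTN3A2 at -0.91) and 8 not called. The share of the 12 called higher, 16.7%, was close to that of all tested genes, where 20.7% were higher and 20.8% lower. The summed level of the 20 genes was 262 ± 5.91 CPM in siNC and 269 ± 0.947 CPM in siTCF19.

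Library totals ran from 14680022 to 16244705 counts. The epithelial markers KRT8, KRT18, KRT19, EPCAM, CDH1 and CLDN4 were all expressed, at 2164 to 2277 CPM together in siNC and 2036 to 2121 CPM in siTCF19. The edgeR test called KRT8 (-0.40) and KRT18 (-0.43) lower and KRT19 (0.44) and CDH1 (0.61) higher. Of the endometrial markers 3 of 5 passed the filter, PAX2 and ESR1 being those that did not, and SOX17 was higher (0.55). The 12 markers of stroma, blood and endothelium, of which 4 passed the filter, summed to 185 to 187 CPM in siNC and 140 to 152 CPM in siTCF19, mostly COL1A2 and COL1A1, with DCN at 0. These 4 moved in both directions: COL1A2 (161 and 101 CPM in siNC and siTCF19) and CDH5 (0.978 and 0.259 CPM) were lower, and COL1A1 (17.9 and 26.7 CPM) and VWF (5.13 and 15.5 CPM) were higher. CDH5 counted 12, 14 and 19 reads in siNC and 5, 4 and 3 in siTCF19. It met the filter in siNC alone, so the filter itself favours a difference for this gene. Of 15 RNAs listed as lacking a long poly(A) tail, 8, with RN7SK, RMRP and RPPH1, were at 0 counts throughout, and RN7SL2 read 783 ± 166 CPM in siNC and 367 ± 93.9 CPM in siTCF19. Mitochondrial ribosomal RNAs took 0.283% to 0.344% of counts in siNC and 0.581% to 0.642% in siTCF19, of which MT-RNR2 was higher (log2 fold change 1.12) and MT-RNR1 lower (-0.65). The part of these differences in the histone values was not tested, and the labels do not say whether the libraries were made from poly(A) RNA.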

How the data were processed

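Gene-level RNA-seq of 3 siNC and 3 siTCF19 libraries was analysed, each put in its group by its title. The authors deposited whole-number read counts per gene. The submitters' processing notes name HISAT2 2.0.5, featureCounts 1.5.0-p3 and hg38, with no strand or multi-mapping setting. Per the file headers the same table holds the authors' FPKM values, each group's normalized mean signal, and their log2 fold change and p-value, raw and adjusted. No source used here names the tool behind the latter. No column of per-sample values was left unused.

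Counts were tested as deposited, with edgeR 4.0.16 (R 4.3.3): filterByExpr kept 17299 genes, TMM scaled the libraries, and glmQLFit with glmQLFTest compared the groups, with Benjamini-Hochberg adjustment over all tested genes. Calls were made at an adjusted p under 0.05. Library totals of 14680022 to 16244705 counts became TMM-scaled sizes of 14585603 to 15844304 for CPM, errors on them are SDs, errors on log2 fold changes are SEs, and intervals are 95% intervals. The intervals come from the edgeR fit and carry the spread between libraries. The 3-count floor covers counting error only, as PCR copies cannot be recognised. The deposited gene symbols include 27 stored as dates, which were left as they stood. Stem-loops, exons and shared windows came from GENCODE 29 transcripts and promoters from RefSeq.

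The members and the gene lists were chosen with earlier results of these data known. Named were TCF19, every histone gene that passed the filter, the 3 most counted of the others, SLBP and NPAT, and up to 4 called genes of each list by lowest p. A gene of the S phase list is not reported here by name. The step was tested on simulated data. Alternatives were scaling by library size only, by RLE or by upper quartile, a filter of at least 1 CPM in 3 or more libraries or none, DESeq2 1.42.0, limma-trend on log2(FPKM + 1) and limma-voom (limma 3.58.1), a replicate block, an adjusted p under 0.01, protein-coding genes only, each library left out, pseudogenes included in the histone share, and the testis genes left out. Python 3.11.15, pandas 2.3.3, numpy 2.4.6 and matplotlib 3.10.9 were used.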

Additional observations from a re-analysis of the deposited data

How the results depend on the processing

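The number of histone genes called higher, 9, was 7 to 11 under other scalings, filters and tools, 3 at an adjusted p under 0.01, and 5 to 10 with 1 library left out: 5 without siNC replicate 1, and 6 without siNC replicate 2 or without siTCF19 replicate 2. The 1 lower gene became 2 with no filter and 2 with limma-trend on log2(FPKM + 1), and 0 at an adjusted p under 0.01, where edgeR holds 1 gene, HIST1H1E, at an unadjusted p under 0.05 and DESeq2 and limma-voom each call 1 at an adjusted p under 0.05. With library-size-only scaling, which moves the median of all genes to 0.06 on the log2 scale, 4512 genes were higher and 2842 lower in place of 3586 and 3597, histone genes were 11 and 1, and the 65 supply genes were 13 and 20 in place of 9 and 27. HIST1 to HIST4 genes of any biotype took 0.0104% to 0.0115% of counts in siNC and 0.0145% to 0.0151% in siTCF19. None of the testis genes passed the filter, so leaving them out could not change the 9 called higher.

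No pairing of the libraries by replicate number was detected, as same-numbered deviations correlated at 0.01, -0.05 and 0.01. These values do not settle whether the libraries were paired by design. With a replicate block, 9 histone genes were higher and 1 lower, supply genes were 7 and 26, and all genes 3433 and 3441.

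Low counts limit most of the family: 52 of 71 genes were too low to test, and a called gene such as HIST1H1E rests on 17 to 41 counts per library. The reason for the low counts was not tested.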
